A study of Mus musculus with 8 samples.

Results

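Collagens and laminins are the structural proteins of the extracellular matrix, and 55 of the 24047 rows of the deposited count table belong to genes of their chains. They were chosen by symbol, as Col followed by a number, the letter a and a number, or as Lama, Lamb or Lamc followed by a number. The pattern matched 56 rows, and Col4a3bp was set aside because it encodes a ceramide transfer protein and no collagen chain. The chains were divided into 19 of basement membranes (type IV, XV and XVIII collagen and all laminins), 11 fibrillar collagens and 25 other collagens.

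Levels were compared between 4 Ptch1cKO and 4 WT libraries of RNA from tdTomato-positive cells of the mouse somatosensory cortex, sorted at postnatal days 23 to 25. Ptch1cKO mice were Glast-CreERT2; Ptch1fl/fl; Ai14, and WT mice were Glast-CreERT2; Ai14. All received tamoxifen on postnatal days 12 to 14, which activates Cre in cells that use the Glast promoter and leaves them and their progeny red. Glast is the glutamate transporter of astrocytes, and Ptch1 is the Hedgehog receptor that keeps Smo silent in the absence of ligand. The question is how the transcripts of matrix chains stand in cortical astrocytes after Ptch1 has been deleted. No label ties a library to an animal of its own, and the p-values measure the spread between these libraries. Column names give WT replicates 1 and 2, WT replicates 3 and 4, and Ptch1cKO replicates 1 and 2 a shared prefix that no source explains. The descriptions number Ptch1cKO replicates 3 and 4 as 4 and 5.

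A collagen molecule is a helix of 3 alpha chains, in which glycine recurs at a fixed place in each triplet of residues because no larger side chain has room at the core. Most fibrillar collagens keep this pattern unbroken over a long helix, and they assemble into fibrils. Type IV collagen has an interrupted helix and forms a network. Laminins are cross-shaped trimers of an alpha, a beta and a gamma chain, and with type IV collagen they form basement membranes. In the brain a basement membrane surrounds the vessels and lies under the pial surface, and it is built by endothelial cells, pericytes and astrocytes, whose endfeet rest on it. Laminin alpha 2, encoded by Lama2, is the alpha chain known from the astrocyte side of this membrane, and laminin alpha 4 is known from the endothelial side.

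The repeat that defines a collagen chain can be read in the coding sequence. For 7 chains described below, the first coding exon of 54 bases that lies whole within the longest glycine repeat is shown, from the GENCODE M21 transcripts (GRCm38, equal to mm10). Each is printed on the coding strand, with the glycine codon that opens each triplet of residues in capitals.
Col1a2, chr6:4515481-4515534, plus strand: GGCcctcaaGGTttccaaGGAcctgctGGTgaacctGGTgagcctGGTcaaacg
Col1a1, chr11:94939904-94939957, plus strand: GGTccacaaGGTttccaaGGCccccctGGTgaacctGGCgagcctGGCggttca
Col11a1, chr3:114108281-114108334, plus strand: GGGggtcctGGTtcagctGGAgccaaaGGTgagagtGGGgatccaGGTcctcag
Col5a2, chr1:45422386-45422439, minus strand: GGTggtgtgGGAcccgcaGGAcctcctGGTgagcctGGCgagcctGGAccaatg
Col19a1, chr1:24296760-24296813, minus strand: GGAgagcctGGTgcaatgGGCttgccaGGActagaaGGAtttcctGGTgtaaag
Col12a1, chr9:79612916-79612969, minus strand: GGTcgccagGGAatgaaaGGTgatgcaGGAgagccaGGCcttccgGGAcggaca
Col4a1, chr8:11245211-11245264, minus strand: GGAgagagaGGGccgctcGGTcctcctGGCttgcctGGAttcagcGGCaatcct

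Each of these exons spells 6 triplets that open with a glycine codon. The chains differ in how long the repeat runs before it is broken. The longest unbroken run was 339 triplets in Col1a2, 338 in Col1a1, 338 in Col11a1 and 339 in Col5a2. In the fibrillar chains Col24a1 and Col27a1 it was shorter, at 216 and 217 triplets. In Col4a1 it was 40 triplets, and the coding sequence held 18 separate runs of at least 10 triplets. Col19a1 had 9 such runs with a longest of 57, and Col12a1, most of which is not collagenous, had 4 with a longest of 32. Col1a2 also had 24 coding exons of 54 bases among its 52 coding exons, against 2 among the 52 of Col4a1.

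The libraries held 4061274 to 7043378 counts in Ptch1cKO and 4958119 to 7206462 in WT. WT replicate 3 stood apart in the number of genes with a count, 17554 against 15175 to 16106 in the other 7 libraries. Xist marked WT replicates 2 and 3 as female, with 1148 and 612 counts, while no other library had more than 4. All 4 Ptch1cKO libraries were of the male pattern, so sex is partly confounded with genotype. Ptch1 itself had 223 ± 40.8 CPM (counts scaled to library size with TMM factors; SD, n = 4) in Ptch1cKO and 357 ± 122 CPM in WT, and overlapped between groups. Its log2 fold change was -0.67 (SE 0.22), with a Benjamini-Hochberg adjusted p of 0.349 by edgeR's quasi-likelihood test. As a check of the cell type, the 20 listed astrocyte markers summed to 23182 to 46583 CPM in Ptch1cKO and 28323 to 42670 CPM in WT. Transcripts of other cells were present too, with 17602 to 23339 CPM for 12 oligodendrocyte markers in Ptch1cKO and 13871 to 26865 CPM in WT. For 10 oligodendrocyte precursor markers the sums were 262 to 372 CPM in Ptch1cKO and 228 to 301 CPM in WT. For 15 neuron markers the sums were 4135 to 5341 CPM in Ptch1cKO and 4323 to 5832 CPM in WT. At an unadjusted p under 0.05 (edgeR), 3 of 20 astrocyte markers were higher and 0 lower. Of 10 tested oligodendrocyte markers 4 were higher and 1 lower, and of 9 tested precursor markers 1 was higher and 0 lower. The shares over all genes tested were 4.8% higher and 4.54% lower.

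Matrix chains were a minor part of these transcriptomes. All 55 together took 0.0112 to 0.0167% of the counts of a Ptch1cKO library and 0.0111 to 0.0177% of a WT library. Every chain had a count somewhere, but 29 had a count in every library. On the per-length scale of the authors' deposited TPM, which is scaled for gene length and depth, the highest chains over the 8 libraries were Col1a2, Lama2, Lamc1, Lamb2 and Lama4. These 5 genes held 60.0 ± 5.30% of the chain TPM in Ptch1cKO and 47.2 ± 6.58% in WT (SD, n = 4). Levels of different genes also depend on how well the exome probes capture them. In Ptch1cKO, Col1a2 led with 10.9 ± 5.53 TPM, ahead of Lama2 with 7.86 ± 3.14, Lamc1 with 6.67 ± 2.91 and Lamb2 with 5.68 ± 0.856 TPM (SD, n = 4). In WT the order was Lama2 with 7.10 ± 2.61 TPM, Lamc1 with 5.998 ± 1.26, Lamb2 with 5.96 ± 0.855 and Col1a2 with 4.89 ± 2.39 TPM (SD, n = 4). Neighbours in both of these orders lay within an SD of each other.

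No chain passed the test between genotypes. Of the 55 chains, 17 had enough counts to be tested, and 0 of them had a Benjamini-Hochberg adjusted p under 0.05 (edgeR quasi-likelihood test over 10954 genes). Over all genes tested the share called was 0.1%, with 0.0822% higher and 0.0183% lower. At an unadjusted p under 0.05 there were 6 chains, beside 9.34% of all genes tested. Col1a2 was the only one higher in Ptch1cKO. Lama4, Col11a1, Col5a2, Col19a1 and Col12a1 were lower in Ptch1cKO. Among all genes tested, 4.8% were higher and 4.54% lower at that threshold. The number of such chains fell to 3 without WT replicate 4, and of the 6 only Col1a2 and Col12a1 were then still among them. Fold changes were positive for 8 chains and negative for 9, where 49.6% of all genes tested were positive and 50.4% negative. Run without the count filter on 20578 genes, DESeq2 also called 0 chains, though its default filtering can leave low-count genes without an adjusted p. It had 8 of the 55 with an unadjusted p under 0.05, for which the share over all genes is not given here. In none of the 17 did the ranges of the groups part, where 5.02% of all genes tested had groups that did not overlap (2.52% higher and 2.5% lower). The filter asks for about 1.65 CPM in at least 4 libraries, and 3 chains (Col11a1, Col11a2 and Col19a1) met it in all 4 WT libraries but in fewer Ptch1cKO libraries. For Col27a1 it was met in all 4 Ptch1cKO libraries and in 3 of WT. Col5a2 and Col12a1 were over the value in 1 Ptch1cKO and 3 WT libraries. A filter on the mean over all libraries, which does not favour either group, tested 24 chains and gave the same 6 at an unadjusted p under 0.05. Among 11971 genes, 4.69% were then higher and 4.64% lower.

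**Figure D1:**
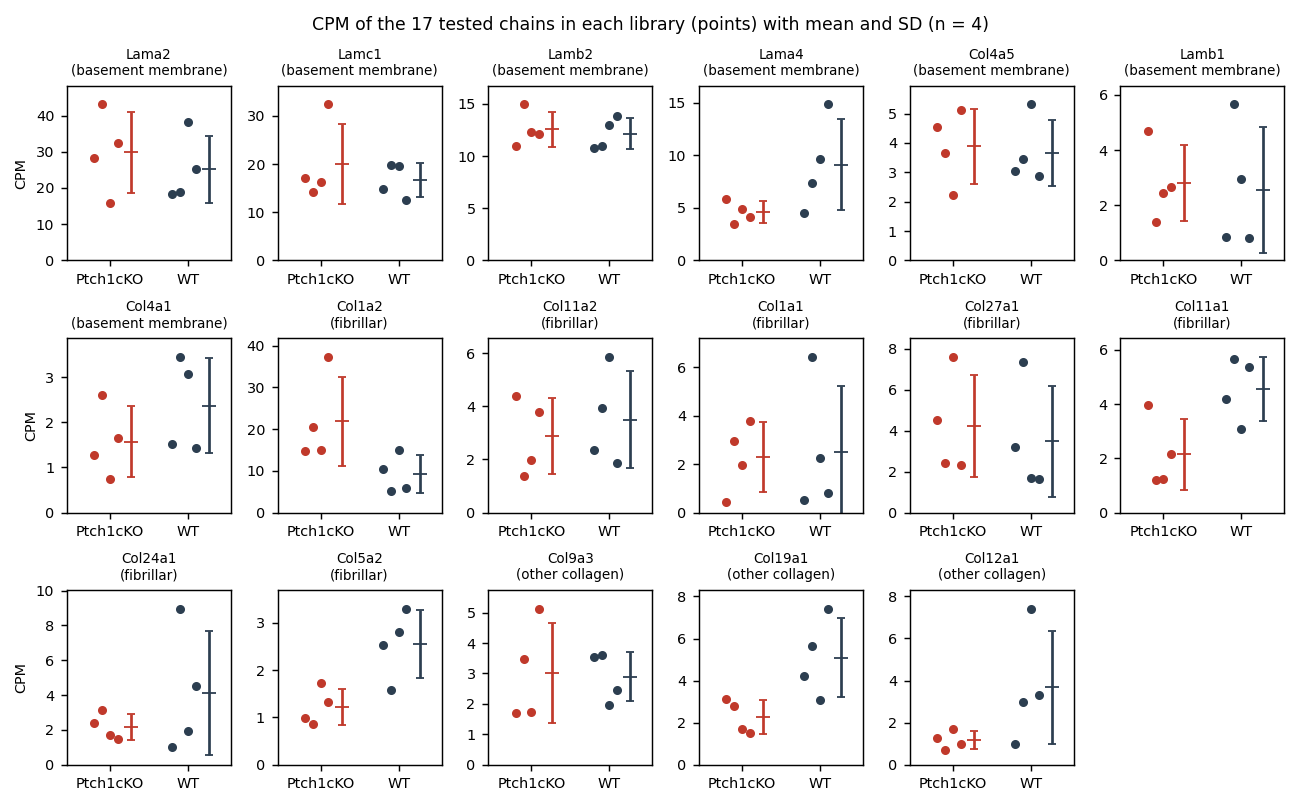
CPM of each of the 17 tested chains in the 4 Ptch1cKO (red) and 4 WT (dark) libraries, with points for libraries and a bar for the mean and SD. Col1a2 is the one chain whose Ptch1cKO libraries sit mostly above WT, and Lama4, Col11a1, Col5a2, Col19a1 and Col12a1 sit mostly below, with some overlap in each panel.

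Laminin chains dominated the basement membrane class. Lama2 (chromosome 10, 26980036 to 27619758, minus strand) had 28.3, 43.1, 16.0 and 32.4 CPM in Ptch1cKO replicates 1 to 4, and 18.3, 18.9, 38.2 and 25.3 CPM in WT replicates 1 to 4. The libraries of both groups were mixed in order. Its log2 fold change was 0.25 (SE 0.30, with edgeR and Benjamini-Hochberg giving an adjusted p of 0.849). The library with the least Lama2 in Ptch1cKO, replicate 3, was also the one with the lowest astrocyte marker sum, 23182 CPM, and replicate 2, with the most Lama2, had the highest, 46583 CPM. In WT, replicate 3 was highest for both, with an astrocyte marker sum of 42670 CPM. The WT minima differed, with Lama2 lowest in replicate 1 and the marker sum lowest in replicate 2, at 28323 CPM. Of the 20 astrocyte markers, 17 had positive and 3 negative fold changes. Their sum averaged 34534 ± 9593 CPM in Ptch1cKO and 36220 ± 6496 CPM in WT (SD, n = 4). The part of astrocyte content in these values was not tested. An exon of Lama2 overlaps the opposite-strand gene Gm48084, and the labels do not say whether reads were counted by strand.

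Lamc1 and Lamb2, a gamma and a beta chain that pair with laminin alpha 2, were the next most abundant laminin chains. Lamb2, the beta 2 chain (chromosome 9, 108479736 to 108490530, plus strand), averaged 12.6 ± 1.70 CPM in Ptch1cKO and 12.1 ± 1.49 CPM in WT (SD, n = 4). Relative to its mean it varied least of the tested chains, between 10.9 and 14.9 CPM in Ptch1cKO and between 10.8 and 13.8 CPM in WT, and its log2 fold change was 0.049 (SE 0.23; by edgeR the adjusted p was 0.972, Benjamini-Hochberg). Lamc1, the common gamma 1 chain (chromosome 1, 153218922 to 153332786, minus strand), had 17.2, 14.2, 16.2 and 32.4 CPM in Ptch1cKO, against 14.8, 19.8, 19.6 and 12.6 CPM in WT. A single library, Ptch1cKO replicate 4, stood far above the rest, and the log2 fold change of 0.26 (edgeR: SE 0.28 and adjusted p 0.828, Benjamini-Hochberg) became -0.073 without it. Lamb1, the beta 1 chain, averaged 2.80 ± 1.38 CPM in Ptch1cKO and 2.56 ± 2.29 CPM in WT (SD, n = 4).

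Lama4 was the laminin chain with the smallest p-value. Lama4 (chromosome 10, 38965515 to 39110188, plus strand) had 5.82, 3.48, 4.92 and 4.13 CPM in Ptch1cKO, against 4.54, 7.39, 9.64 and 14.8 CPM in WT. WT replicates 2, 3 and 4 lay above every Ptch1cKO library, and WT replicate 1 lay among the Ptch1cKO libraries. The log2 fold change was -0.98 (SE 0.36), with an unadjusted p of 0.0162 and a Benjamini-Hochberg adjusted p of 0.421 (edgeR). Without WT replicate 4, the library with the most Lama4, it was -0.65 (SE 0.35) with an unadjusted p of 0.0826. Vascular transcripts were measured beside it. The 20 listed endothelial markers, all with a count, summed to 34.2 to 64.3 CPM in Ptch1cKO and 46.8 to 95.5 CPM in WT, and the 18 mural cell markers, all with a count, to 46.0 to 62.7 CPM in Ptch1cKO and 57.2 to 80.9 CPM in WT. The highest of these were Slc2a1 and Cd34 among endothelial and Tpm2 and Pdgfrb among mural markers. At an unadjusted p under 0.05 there were 0 higher and 1 lower of 9 tested endothelial markers, and 1 higher and 2 lower of 6 tested mural markers. Fold changes were positive for 2 and negative for 7 of the endothelial markers, with a median log2 fold change of -0.48, and positive for 3 and negative for 3 of the mural markers, with a median of 0.081. Rgs5, a pericyte gene, had 3.48 ± 1.72 CPM in Ptch1cKO and 9.75 ± 5.82 CPM in WT, and Vwf, the endothelial von Willebrand factor, 0.951 ± 0.605 CPM in Ptch1cKO and 2.81 ± 1.38 CPM in WT (SD, n = 4). Desmin (Des), a muscle filament gene of mural cells, went the other way, with 3.22 ± 1.47 CPM in Ptch1cKO and 0.969 ± 0.890 CPM in WT (SD, n = 4). None of the 3 passed, with adjusted p-values of 0.325 for Rgs5, 0.435 for Vwf and 0.432 for Des (edgeR, Benjamini-Hochberg). Claudin 5 (Cldn5), which defines brain endothelium, had at most 3 counts in any library, and the pericyte gene Higd1b at most 1. The part of vascular cells in the Lama4 values was not tested, and in bulk libraries fewer cells of a type cannot be told apart from less RNA per cell.

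On the per-length scale the laminin alpha chains were mostly Lama2 and Lama4. Lama2 made up 72.5 ± 8.71% of alpha chain TPM in Ptch1cKO and 59.3 ± 7.79% in WT, and Lama4 20.1 ± 8.70% in Ptch1cKO and 33.9 ± 9.79% in WT (SD, n = 4). Ranges overlapped, at 61.5 to 80.9% in Ptch1cKO and 49.9 to 66.8% in WT for Lama2. For Lama4 they were 10.5 to 30.6% in Ptch1cKO and 26.3 to 47.1% in WT. Lamb2 made up 79.5 ± 7.61% of beta chain TPM in Ptch1cKO and 77.9 ± 8.74% in WT (SD, n = 4). By mean transcript TPM, Lama2 was thus the highest alpha chain gene and Lamb2 the highest beta chain gene in both genotypes. In WT replicate 4 Lama2 and Lama4 were close, at 49.9% and 47.1% of alpha chain TPM.

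**Figure D2:**
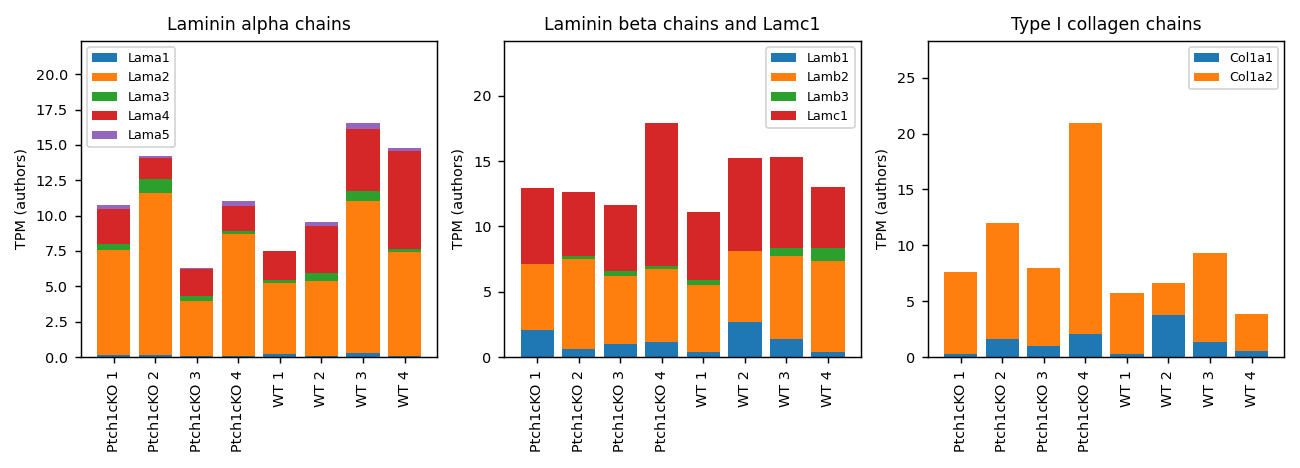
Deposited TPM of laminin alpha chains (left), laminin beta chains with Lamc1 (middle) and type I collagen chains (right) in each library, stacked by gene, with Ptch1cKO libraries left of WT libraries. Lama2 is the largest alpha chain in every library, and Col1a1 exceeds Col1a2 in WT replicate 2 and in no other library.

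Collagens of basement membranes were low. The 8 chains summed to 5.90 to 11.1 CPM in Ptch1cKO and 6.38 to 12.2 CPM in WT, and 2 were tested. Col4a5, on the X chromosome (141475385 to 141689234, plus strand), had 4.54, 3.65, 2.21 and 5.12 CPM in Ptch1cKO and 3.03, 3.46, 5.31 and 2.88 CPM in WT. Among the WT libraries the 2 of the female pattern, replicates 2 and 3, had the higher values. The log2 fold change was 0.088 (SE 0.38, with edgeR and Benjamini-Hochberg giving an adjusted p of 0.97). Col4a1, which with Col4a2 makes the common type IV trimer, averaged 1.57 ± 0.787 CPM in Ptch1cKO and 2.37 ± 1.04 CPM in WT (SD, n = 4), for a log2 fold change of -0.59 (SE 0.49; by edgeR the adjusted p was 0.776, Benjamini-Hochberg).

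Type IV genes lie head to head in pairs that start close together, and the partners were read side by side. The starts of Col4a1 and Col4a2 on chromosome 8 are 21 bases apart and their first exons overlap, so reads there cannot be told apart without strand. Pooled over 4 libraries, Col4a1 had 37 counts in Ptch1cKO and 60 in WT, and Col4a2 had 37 in Ptch1cKO and 31 in WT. Col4a5 and Col4a6, whose starts are 1309 bases apart on the X chromosome, differed in level. Col4a5 had 93 pooled counts in Ptch1cKO and 92 in WT. Col4a6 had 0 in Ptch1cKO and 10 in WT, of which 8 came from WT replicate 3. Col4a3 and Col4a4, with starts 72 bases apart on chromosome 1, each had at most 6 counts in any library. Col18a1, the source of endostatin, had at most 2 counts in any library.

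Among fibrillar chains, Col1a2 had the smallest p-value of the 17 tested chains and was higher in Ptch1cKO. Col1a2, the alpha 2 chain of type I collagen (chromosome 6, 4504814 to 4541544, plus strand), had 14.6, 20.5, 15.0 and 37.4 CPM in Ptch1cKO, against 10.4, 5.19, 15.1 and 5.97 CPM in WT. Only WT replicate 3 reached into the Ptch1cKO range, above 2 of the mutant libraries. The fold was 2.37, with a log2 fold change of 1.24 (SE 0.37), an unadjusted p of 0.0048 and a Benjamini-Hochberg adjusted p of 0.325 (edgeR). The log2 fold change was 0.86 (SE 0.36) without Ptch1cKO replicate 4, the highest library, and 1.41 (SE 0.43) among the 6 libraries of the male pattern. Without the filter on low counts Col1a2 was called, with an adjusted p of 0.00192 (edgeR, Benjamini-Hochberg), in a fit that called 199 genes. Over all alternatives its adjusted p ranged from 0.00192 to 0.698.

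Col1a1, the partner chain, was lower and more variable than Col1a2. Type I collagen normally holds more alpha 1 than alpha 2 chains. Here Col1a1 (chromosome 11, 94936224 to 94953042, plus strand) had 0.426, 2.95, 1.97 and 3.80 CPM in Ptch1cKO, and 0.505, 6.44, 2.24 and 0.823 CPM in WT. WT replicate 2 was its highest library and the lowest for Col1a2. The log2 fold change was -0.16 (edgeR: SE 0.72 and adjusted p 0.972, Benjamini-Hochberg), and it was 1.76 among the 6 libraries of the male pattern, which leave out WT replicates 2 and 3. Per length, the ratio of Col1a2 to Col1a1 TPM was 6.33 to 31.3 in Ptch1cKO and 0.734 to 18.9 in WT. Col1a2 made up 35.0 ± 8.60% of collagen chain TPM in Ptch1cKO and 15.0 ± 7.02% in WT (SD, n = 4), and the ranges, 28.4 to 46.8% in Ptch1cKO and 7.07 to 21.2% in WT, did not overlap. This share was computed for a description and was not tested.

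Fibroblast transcripts were measured beside type I collagen, because vascular and meningeal fibroblasts are known as its main source in brain. The 20 listed fibroblast and meningeal markers, all with a count, summed to 42.4 to 56.0 CPM in Ptch1cKO and 25.1 to 82.7 CPM in WT, and 3 were tested, 2 with positive and 1 with negative fold changes and 0 at an unadjusted p under 0.05. Most of the sum was Igfbp2, at 30.0 ± 4.15 CPM in Ptch1cKO and 32.7 ± 19.0 CPM in WT (SD, n = 4). Among the 20 listed, decorin (Dcn) and lumican (Lum), named after their values were seen, had at most 3 counts in any library. Col3a1, a fibrillar chain of the same cells, had at most 10. The part of fibroblasts in the Col1a2 and Col1a1 values was not tested.

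Type V and XI collagen chains are built into fibrils of other types and limit their width, and 3 of them were tested. Col11a1 (chromosome 3, 114030540 to 114220718, plus strand) had 3.98, 1.22, 1.23 and 2.15 CPM in Ptch1cKO, against 4.21, 5.66, 3.08 and 5.35 CPM in WT. Only Ptch1cKO replicate 1 reached the WT range. Its log2 fold change was -1.04 (SE 0.44), with an unadjusted p of 0.0324 and an adjusted p of 0.482 (edgeR, Benjamini-Hochberg). Col5a2 (chromosome 1, 45374321 to 45503282, minus strand) had 0.994, 0.869, 1.72 and 1.32 CPM in Ptch1cKO, against 2.52, 1.57, 2.80 and 3.29 CPM in WT. Only WT replicate 2 lay within the Ptch1cKO range. These values rest on 27 pooled counts in Ptch1cKO and 61 in WT, and the log2 fold change was -1.06 (SE 0.46), with an unadjusted p of 0.0342 and an adjusted p of 0.488 (edgeR, Benjamini-Hochberg). With 1 library left out, the unadjusted p exceeded 0.05 in 5 of 8 fits for Col11a1, up to 0.0878, and in 6 of 8 for Col5a2, up to 0.0888. For Col5a2 it also exceeded 0.05 by DESeq2 (0.0585), without the count filter, on TPM, with the replicate block and among the 6 libraries of the male pattern. Among those 6 libraries it was 0.0605 for Col11a1.

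The remaining fibrillar chains varied more between libraries than between groups. Col24a1 averaged 2.19 ± 0.740 CPM in Ptch1cKO and 4.11 ± 3.56 CPM in WT, Col11a2 2.89 ± 1.44 CPM in Ptch1cKO and 3.50 ± 1.81 CPM in WT, and Col27a1 4.23 ± 2.49 CPM in Ptch1cKO and 3.48 ± 2.70 CPM in WT (SD, n = 4). WT replicate 2 was highest of the WT libraries for Col24a1, with 8.96 CPM, and for Col27a1, with 7.39 CPM. For Col11a2 the log2 fold change of -0.27 (SE 0.47) turned to 0.47 among the 6 libraries of the male pattern and with Xist pattern as a term, and to 0.098 without WT replicate 3. The adjusted p-values were 0.668 for Col24a1, 0.913 for Col11a2 and 0.936 for Col27a1 (edgeR, Benjamini-Hochberg).

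**Figure D3:**
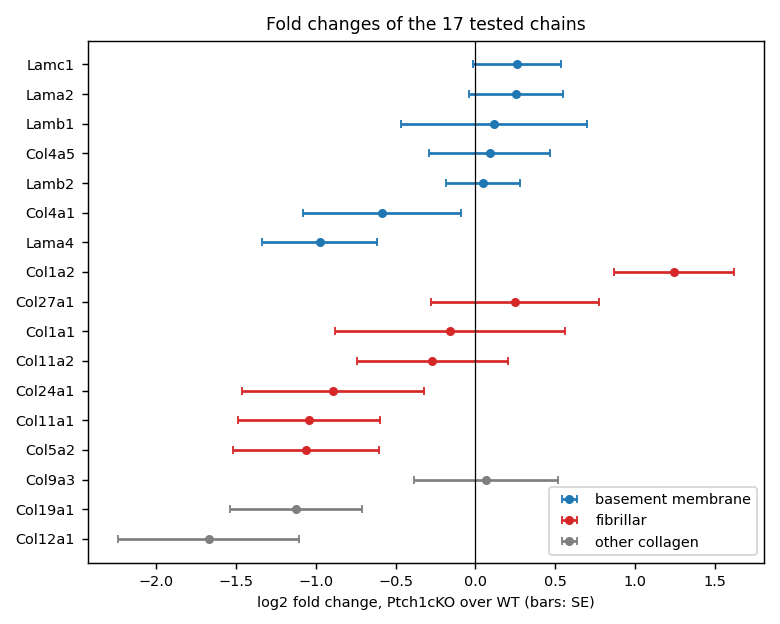
Log2 fold change of Ptch1cKO over WT for the 17 tested chains, ordered by class and size, with bars for 1 SE. Col1a2 lies at 1.24 and Col12a1 at -1.67, the highest and lowest of the 17, and the laminin chains other than Lama4 lie between 0.049 and 0.26.

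Of the other collagens 3 were tested, all of the group that attaches to fibrils and keeps its helix interrupted (FACIT collagens). Col19a1, a chain known from neurons and from synapse formation (chromosome 1, 24261890 to 24587472, minus strand), had 3.12, 2.78, 1.72 and 1.49 CPM in Ptch1cKO, against 4.21, 5.66, 3.08 and 7.41 CPM in WT. Only WT replicate 3 and Ptch1cKO replicate 1 overlapped. Without WT replicate 4, its highest library, the unadjusted p was 0.0559. The log2 fold change was -1.12 (SE 0.41), with an unadjusted p of 0.0149 and an adjusted p of 0.418 (edgeR, Benjamini-Hochberg). Of the 15 neuron markers, all tested, 5 had positive and 10 negative fold changes, and 1 was higher and 2 were lower at an unadjusted p under 0.05. Over the 15 markers log2 fold changes ran from -1.24 to 0.45, with a median of -0.14. The summed level overlapped between groups, and the part of neurons in Col19a1 was not tested.

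Col12a1 (chromosome 9, 79598991 to 79718831, minus strand) had 1.28, 0.695, 1.72 and 0.992 CPM in Ptch1cKO, against 1.01, 2.99, 7.41 and 3.29 CPM in WT. WT replicate 3 was the highest and held 53 of the 94 WT counts, while WT replicate 1 lay among the mutant libraries. The log2 fold change was -1.67 (SE 0.57), with an unadjusted p of 0.00956 and an adjusted p of 0.376 (edgeR, Benjamini-Hochberg). It was -1.06 (SE 0.57) without WT replicate 3, with an unadjusted p of 0.0842, and -0.87 (SE 0.70) among the 6 libraries of the male pattern, with an unadjusted p of 0.238 (edgeR). Col9a3, a chain of type IX collagen (chromosome 2, 180597790 to 180622189, plus strand), averaged 3.01 ± 1.64 CPM in Ptch1cKO and 2.89 ± 0.813 CPM in WT (SD, n = 4), for a log2 fold change of 0.066 (SE 0.45, with edgeR and Benjamini-Hochberg giving an adjusted p of 0.982). An exon of Col9a3 overlaps the opposite-strand gene Tcfl5.

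By class, the median log2 fold change was 0.088 for the 7 tested basement membrane chains, -0.27 for the 7 fibrillar chains and -1.12 for the 3 others, beside -0.0019 over all genes tested. The value for the 3 others is that of Col19a1 alone. Col19a1, Col12a1, Col5a2, Col11a1 and Col11a2 were over the filter value in more WT than Ptch1cKO libraries, and Col27a1 and Col1a1 in fewer. The last 2 medians thus describe chains that were in part selected through their WT levels. Among the 6 libraries of the male pattern the medians were 0.44, 0.47 and -0.87. The sign of the fibrillar median therefore turned when the female WT libraries were left out. Summed over all members, basement membrane chains had 82.7 ± 15.9 CPM in Ptch1cKO and 80.5 ± 18.9 CPM in WT, and fibrillar chains 38.8 ± 9.98 CPM in Ptch1cKO and 34.5 ± 7.37 CPM in WT (SD, n = 4). Other collagens summed to 13.6 to 18.7 CPM in Ptch1cKO and 18.5 to 34.5 CPM in WT, with the lowest WT library, replicate 1, within the Ptch1cKO range.

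The other 38 chains lay below the filter and had at most 22 counts in any library. Of these, 34 had at least 10 counts over the 8 libraries, 27 with a lower and 7 with a higher pooled level in Ptch1cKO. Low-count genes in general leaned the same way, since 60.8% of the 4003 untested genes with at least 10 counts were lower in Ptch1cKO. Without WT replicate 3, a choice made after the data were seen, 23 of the chains were lower and 11 higher, against 55.1% of such genes lower. That library had the highest CPM of 13 of the 34 chains. By an exact two-sided permutation test on CPM, 1 chain had p under 0.05 and 0 passed after Benjamini-Hochberg adjustment over the 34. The share of the 4003 untested genes under that p is not given here, so the 1 chain is not read as a result. The smallest p this test can give is 0.0286, so a pass after adjustment would need many of the 34 chains at that value together. The 0 that passed therefore says little about any single chain.

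That chain was Col6a2, of type VI collagen, which forms beaded filaments. It had 6, 14, 2 and 4 counts in Ptch1cKO, against 0, 3, 1 and 0 in WT. In CPM the groups did not overlap, which was also so for 5.02% of all genes tested. The exact permutation p was 0.0286, the smallest the test can give, adjusted to 0.618. The pooled ratio was 6.90 (exact 95% interval 2.39 to 27.2, for counting error only). Its partners in the same molecule ran the other way. Col6a1 had 14 pooled counts in Ptch1cKO and 38 in WT, a ratio of 0.391 (0.196 to 0.738), and Col6a3 had 12 in Ptch1cKO and 33 in WT, a ratio of 0.386 (0.182 to 0.767). Their exact permutation p-values were 0.171 for Col6a1 and 0.114 for Col6a3, with 0.618 after adjustment for both.

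Further low chains had fewer counts in Ptch1cKO. Col6a5 had 2 pooled counts in Ptch1cKO and 22 in WT, present in all 4 WT libraries (exact permutation p = 0.0571, adjusted 0.618). Col2a1, the cartilage collagen, had 4 in Ptch1cKO and 25 in WT, of which WT replicate 1 held 14. Col17a1, of hemidesmosomes, had 5 in Ptch1cKO and 28 in WT, of which WT replicates 3 and 4 held 16 and 11. Laminin alpha chains below the filter were even, with 45 pooled counts in Ptch1cKO and 41 in WT for Lama3, 22 in Ptch1cKO and 25 in WT for Lama5, and 9 in Ptch1cKO and 15 in WT for Lama1. Differences in chains at these counts were not detectable at this depth unless large. Col8a2, Col10a1, Col13a1 and Col18a1 had fewer than 10 counts in all.

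**Figure D4:**
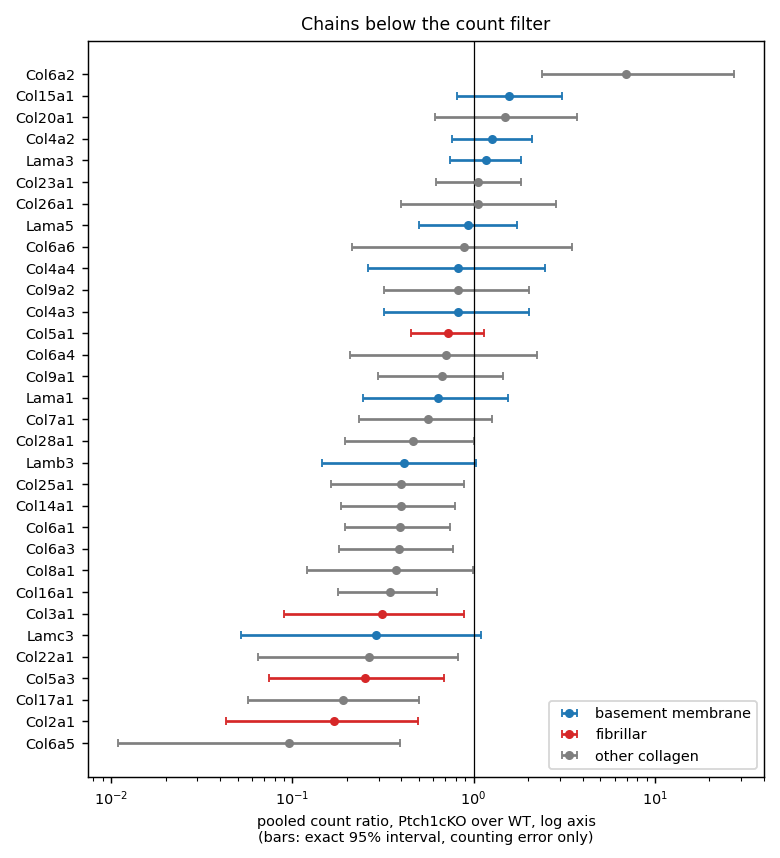
Pooled count ratio of Ptch1cKO over WT on a log axis, scaled by library size, with exact 95% intervals for counting error, for chains below the filter with at least 10 counts in all and a count in each group. Col6a2 at 6.90 is highest and Col6a5 at 0.0965 lowest, and Col4a6, with 0 counts in Ptch1cKO, and 1 further chain are left out.

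Genes that work with these chains were read from lists. Of 23 basement membrane partners 14 were tested, and 1 was called as higher and 0 as lower, where 0.0822% of all genes tested were called as higher and 0.0183% as lower. At an unadjusted p under 0.05 there were 3 higher and 0 lower, and for this and the next 3 lists the shares over all genes tested are 4.8% higher and 4.54% lower. The called gene was Sparc, a collagen-binding matricellular protein, with 3436 ± 614 CPM in Ptch1cKO and 1221 ± 202 CPM in WT (SD, n = 4; edgeR, Benjamini-Hochberg adjusted p = 0.000476). The list was written with this result known. Sparcl1, a relative of Sparc, was at 0.67 (log2 fold change, SE 0.24), and nephronectin (Npnt), a ligand of integrin alpha 8 in basement membranes, 0.93 (SE 0.35). Their adjusted p-values were 0.42 and 0.426 (edgeR, Benjamini-Hochberg). The median log2 fold change of the 14 was -0.027, with 6 positive and 8 negative.

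Of 25 receptors for collagen and laminin 16 were tested and 0 were called, with 2 higher and 0 lower at an unadjusted p under 0.05. Dag1 encodes dystroglycan, the receptor by which astrocyte endfeet hold laminin. It had 132, 173, 114 and 215 CPM in Ptch1cKO, against 85.5, 79.5, 143 and 85.6 CPM in WT, and WT replicate 3 lay within the Ptch1cKO range. Its log2 fold change was 0.69 (SE 0.22; by edgeR the adjusted p was 0.349, Benjamini-Hochberg). Integrin beta 4 (Itgb4), which with integrin alpha 6 binds laminin, had 6.94 ± 0.773 CPM in Ptch1cKO and 3.73 ± 0.957 CPM in WT (SD, n = 4), without overlap and with an adjusted p of 0.404 (edgeR, Benjamini-Hochberg). The highest members, dystrophin (Dmd) at 639 ± 117 CPM in Ptch1cKO and 649 ± 64.9 CPM in WT, and utrophin (Utrn) at 199.9 ± 21.9 CPM in Ptch1cKO and 212 ± 41.1 CPM in WT (SD, n = 4), link dystroglycan to actin and had log2 fold changes of -0.022 and -0.086.

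Of 34 genes that modify, fold or export collagen 20 were tested and 0 were called, with 2 higher and 1 lower at an unadjusted p under 0.05. P4ha3, a subunit of prolyl 4-hydroxylase, which hydroxylates the helix, had 15.8, 20.9, 13.3 and 14.2 CPM in Ptch1cKO, against 3.20, 4.71, 7.41 and 13.6 CPM in WT. Only WT replicate 4 reached the Ptch1cKO range, and the log2 fold change was 1.17 (edgeR: SE 0.37 and adjusted p 0.337, Benjamini-Hochberg). Fkbp14, a prolyl isomerase of the endoplasmic reticulum, was at 1.10 on the log2 fold change scale (SE 0.46), and Colgalt2, a collagen galactosyltransferase, -1.11 (SE 0.49), with adjusted p-values of 0.477 and 0.505 (edgeR, Benjamini-Hochberg). The most abundant members, Sec23a and Ctage5, which serve export of cargo from the endoplasmic reticulum, had log2 fold changes of 0.19 and 0.14.

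Of 25 matrix proteases and their inhibitors 15 were tested and 0 were called, with 4 higher and 1 lower at an unadjusted p under 0.05, beside 4.8% and 4.54% of all genes tested. Mmp2, gelatinase A, which cleaves type IV collagen, had 4.26, 6.78, 7.87 and 4.63 CPM in Ptch1cKO, against 2.35, 1.57, 2.10 and 2.47 CPM in WT. All Ptch1cKO libraries lay above all WT libraries, and the log2 fold change was 1.46 (SE 0.37, with edgeR and Benjamini-Hochberg giving an adjusted p of 0.231). The lysosomal protease Ctsb had 116 ± 4.52 CPM in Ptch1cKO and 78.4 ± 6.47 CPM in WT, and the membrane-bound metalloprotease Mmp16 24.6 ± 7.39 CPM in Ptch1cKO and 38.9 ± 2.12 CPM in WT (SD, n = 4). Neither group pair overlapped, and the adjusted p-values were 0.173 for Ctsb and 0.349 for Mmp16 (edgeR, Benjamini-Hochberg). Ctsb is also a gene of microglia, whose 16 listed markers summed to 556 to 1444 CPM in Ptch1cKO and 489 to 927 CPM in WT. All 16 were tested and had positive fold changes, with a median log2 fold change of 0.72 and 4 higher at an unadjusted p under 0.05, and their part in the values of Ctsb and Ctsl was not tested. Timp4, an inhibitor of metalloproteases, and Ctsl, another lysosomal protease, had log2 fold changes of 0.64 (SE 0.21) and 0.54 (SE 0.24), with adjusted p-values of 0.361 and 0.515 (edgeR, Benjamini-Hochberg). Timp3, the most abundant member, had 0.29 (SE 0.21). The median log2 fold changes were 0.27 for the receptors, 0.082 for the modifying genes and 0.051 for the proteases and inhibitors.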

How the data were processed

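Per the labels' protocols, RNA of cells sorted for tdTomato was amplified with a low-input cDNA kit and enriched with exome capture probes. The submitters' processing notes list bcl2fastq 2.18, STAR 2.5 and build mm10, while the sources do not name the counting program or a strand setting. The deposited counts are whole reads in 24047 rows of gene symbols. The TPM values were made by the authors, for 23585 rows, and serve for levels between genes and 1 alternative.

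In R 4.3.3, edgeR 4.0.16 kept 10954 genes (filterByExpr, minimum count 10), scaled by TMM and compared 4 Ptch1cKO with 4 WT libraries by the robust quasi-likelihood test. A gene was called at a Benjamini-Hochberg adjusted p below 0.05 over all genes. SE was derived from the fold change and F. Alternatives were DESeq2 1.42.0, limma 3.58.1 on log2(TPM + 1), other size factors, no filter, a mean of 1 CPM, a replicate block, libraries under 10 Xist counts, Xist pattern as a term, and each library left out. Exact permutation tests used 70 assignments. Intervals cover counting error of pooled reads only and leave out the spread between libraries. No molecular identifiers are given, so copies of the same molecule cannot be told apart. The test was checked on simulated data, and no libraries were duplicates by a chi-square test.

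The chains, lists and tests were chosen with earlier results of these data known. Named with values were, per class, the 3 tested chains highest in TPM and every tested chain with an unadjusted p under 0.05, and from partner lists the 2 highest members and up to 5 with the smallest unadjusted p under 0.05. Low-count chains and marker genes named were picked after their values were seen. The values of 1 chain are not reported here.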

Additional observations from a re-analysis of the deposited data

Results flagged for a closer look

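Lamc1 in Ptch1cKO replicate 4, at 32.4 CPM, lay far from the other 3 Ptch1cKO libraries, which had 14.2 to 17.2 CPM, by Dixon's criterion for 4 samples. With both groups of 17 tested chains examined, chance alone flags about 1 group in 20. The same library was also the highest for Col1a2, at 37.4 CPM.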

How the results depend on the processing

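The number of genes called over all tested was 11, and it was 83 by DESeq2, 199 without the count filter, 6 with the filter at a mean of 1 CPM, 2 by limma on TPM, 5 with the replicate block, 3 in the libraries with under 10 Xist counts, 2 with Xist pattern as a term, and 1 to 19 with 1 library left out, from 1 without WT replicate 2, 3 or 4 to 19 without Ptch1cKO replicate 2. The number of chains called was 0 in each alternative except without the count filter, where it was 1. The number at an unadjusted p under 0.05 was 6 of the 17 tested chains. Without the filter it was 13 of all 55 chains, in a fit over 20578 genes whose share at that threshold is not given here. With 1 library left out it was 3 to 6. It was lowest, 3, without WT replicate 4. The basement membrane median was 0.44 in the libraries with under 10 Xist counts and 0.41 with Xist pattern as a term, and -0.068 to 0.17 with 1 library left out. The fibrillar median was 0.47 in both Xist alternatives and -0.55 to -0.15 with 1 library left out. The median of the other collagens was -0.52 by limma on TPM and -1.32 to -0.90 with 1 library left out. Signs turned for Lamb2 (-0.060) and Col9a3 (-0.10) by limma on TPM, for Col1a1 (0.070) and Col9a3 (-0.046) with the replicate block, for Col11a2 (0.47) and Col1a1 (1.76) in the libraries with under 10 Xist counts, and for Col11a2 (0.47) and Col1a1 (1.77) with Xist pattern as a term. With 1 library left out the log2 fold change was -0.54 to 0.88 for Col1a1, -0.55 to 0.098 for Col11a2, -0.32 to 0.27 for Col9a3, -0.040 to 0.11 for Lamb2 and -0.073 to 0.40 for Lamc1. The signs of Col1a2, Lama4, Col11a1, Col5a2, Col19a1, Col12a1 and Lama2 held in all 16 alternatives, and the causes of the changes were not tested. Replicate numbers were not treated as pairs, since deviations of same-numbered libraries correlated at -0.18 to 0.02. At these depths 38 of 55 chains were too low to test.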
